A study of Saccharomyces cerevisiae with 18 samples.

Results

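Calicheamicin was compared with its methanol vehicle in *Saccharomyces cerevisiae*, and the comparison rests on 6 of the 18 arrays of the study. These are the 3 arrays that the labels name as calicheamicin and the 3 they name as methanol, each hybridised with RNA of a separate biological replicate. All cultures were of strain DBY747, a *MAT*a haploid carrying *his3*, *leu2*, *ura3* and *trp1* mutations, grown in rich medium (YPD) to mid-log phase. Calicheamicin was applied for 15 min at 1 nM, a dose that the labels tie to 20 to 25% lethality, and the control cultures received methanol, the solvent of the drug stock, for which neither an amount nor a time is labelled. The other groups, each of 3 arrays, are esperamicin A1 at 3 nM and neocarzinostatin at 4 nM, both for 15 min and with the same methanol controls, and γ-radiation, also at 20 to 25% lethality, with mock irradiation as its own control.

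Calicheamicin is an enediyne antibiotic that binds in the minor groove of DNA and, once activated by a thiol such as glutathione, forms a diradical that abstracts hydrogen atoms from deoxyribose on both strands, so that strand breaks follow. In budding yeast, DNA breaks and stalled replication activate the kinases Mec1 and Rad53, and Rad53 activates the kinase Dun1. Dun1 signalling relieves repression of the ribonucleotide reductase genes, whose enzyme makes deoxyribonucleotides, and induction of *RNR2*, *RNR3*, *RNR4* and *HUG1* is a standard readout of this checkpoint. The comparison asks which transcripts differed after the drug, and how the drug's effect compared with that of ionizing radiation at similar toxicity.

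One control array stood apart. The control probe sets at the 5′ and 3′ ends of the actin transcript differed by -3.59 on the log2 scale on methanol vehicle 1, against -0.97 and -0.77 on methanol vehicle 2 and 3 and between -1.34 and -0.74 on the calicheamicin arrays. A low 5′ signal is a usual sign of degraded or incompletely copied RNA. For the TATA-binding protein gene *SPT15*, the same difference was -4.40 on methanol vehicle 1, and the other 5 arrays lay between -3.75 and -2.36. Calicheamicin arrays correlated with their own group at 0.990 to 0.992 (Pearson's r of log2 values across genes, averaged over the other 2 arrays), and methanol vehicle 1, 2 and 3 at 0.958, 0.975 and 0.974. The median SD of a gene was 0.151 on the log2 scale among the calicheamicin arrays and 0.257 among the methanol arrays. Every result below is therefore given with all 3 methanol arrays and, where stated, without methanol vehicle 1. Mating-type markers mostly fitted the labelled strain. Of 5 *MAT*a markers, 4 lay above the medians of the genes tested on all 6 arrays, and the lowest intensity among the 5 was 5.59. Of 7 *MAT*α and diploid markers, 0 did, and of 4 genes mutated in the strain, 3 did. *MFA2*, which encodes the **a**-factor pheromone, gave intensities of 1165 to 1346 on the methanol arrays and 1339 to 1582 on the calicheamicin arrays. *MF(ALPHA)1*, the α-factor gene, gave 17.2 to 19.3 and 11.6 to 14.9, near the array medians of 16.0 to 16.8 over all probe sets.

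No gene of the 5656 tested was called for calicheamicin against methanol vehicle (0%), where limma had to give at least a 1.5-fold change with an adjusted p (Benjamini-Hochberg) no larger than 0.10. The smallest adjusted p over all genes was 0.923, and 220 genes (3.89%) had an unadjusted p under 0.05. Leaving out methanol vehicle 1, limma again called 0 genes, 69 genes had an unadjusted p under 0.05 and the smallest adjusted p was 0.999. The local pooled error (LPE) test, which borrows each gene's error from genes of similar intensity, called 4 genes (0.0707%) at the same thresholds, and 9 without methanol vehicle 1. Leaving out methanol vehicle 2 or 3 gave 1 limma call each, described with the LPE calls below. The median absolute log2 fold change was 0.15 and the median standard error 0.20. For 5198 genes (91.9%) the whole 95% interval lay within a 2-fold change in either direction. Within the 1.5-fold change used for calls it lay for 2926 genes (51.7%), so a missing call does not show that a gene was unchanged.

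The ribonucleotide reductase genes stayed near their control levels. *RNR3*, the damage-inducible large subunit, had intensities of 66.2, 73.2 and 52.7 on methanol vehicle 1 to 3 and of 88.5, 66.9 and 64.9 on calicheamicin 1 to 3, a log2 fold change of 0.20 with a 95% interval from -0.40 to 0.80. Its groups overlapped, and γ-radiation gave a log2 fold change of 3.64 against mock irradiation. *RNR2*, the main small subunit, had 764, 822 and 863 on the methanol arrays and 956, 804 and 896 on the calicheamicin arrays (log2 fold change 0.12, interval -0.19 to 0.42). *RNR4*, the partner of Rnr2, had 485, 540 and 547 against 519, 351 and 462 (-0.26, interval -0.60 to 0.09), with the lowest value on calicheamicin 2. For *RNR1*, the constitutive large subunit, the values were 105, 200 and 146 against 137, 162 and 181 (0.13, interval -0.89 to 1.15), so that the interval was the widest of the 4 subunits. With all arrays the 4 had overlapping groups, and without methanol vehicle 1 their log2 fold changes lay between -0.31 and 0.23. Without that array, every *RNR4* value on calicheamicin lay below both remaining methanol values, as for 7.78% of all genes.

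The upstream and auxiliary genes of the same pathway showed the same picture. *HUG1*, which encodes a small inhibitor of the reductase and is strongly induced by checkpoint signalling, had intensities of 173, 129 and 135 on the methanol arrays and 157, 120 and 123 on the calicheamicin arrays, a log2 fold change of -0.13 (interval -0.64 to 0.38) that was 0.00 without methanol vehicle 1. *DUN1* itself had 20.7, 22.0 and 23.3 against 20.5, 21.3 and 23.4, a log2 fold change of -0.02 (interval -0.32 to 0.28). The groups of both genes overlapped. *SML1*, whose product inhibits the reductase until Dun1 triggers its destruction, had 359, 757 and 900 against 947, 674 and 991 (0.46, interval -0.17 to 1.08), and 0.06 without methanol vehicle 1. All 10 listed genes of the reductase and Dun1 pathway were measured. Of these 0 were called, 0 had an unadjusted p under 0.05 and 0 had groups that did not overlap, beside 0%, 3.89% and 9.28% of all genes. The median log2 fold change was 0.10 beside 0.05 over all genes. For 4 of the 10 (40%) the whole interval lay within a 1.5-fold change, beside 51.7% of all genes. Without methanol vehicle 1, *RNR4* was the 1 member whose groups did not overlap. Under γ-radiation 5 of the same 10 genes rose, beside 0.902% of all genes called in either direction, with a median log2 fold change of 0.87.

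**Figure D1:**
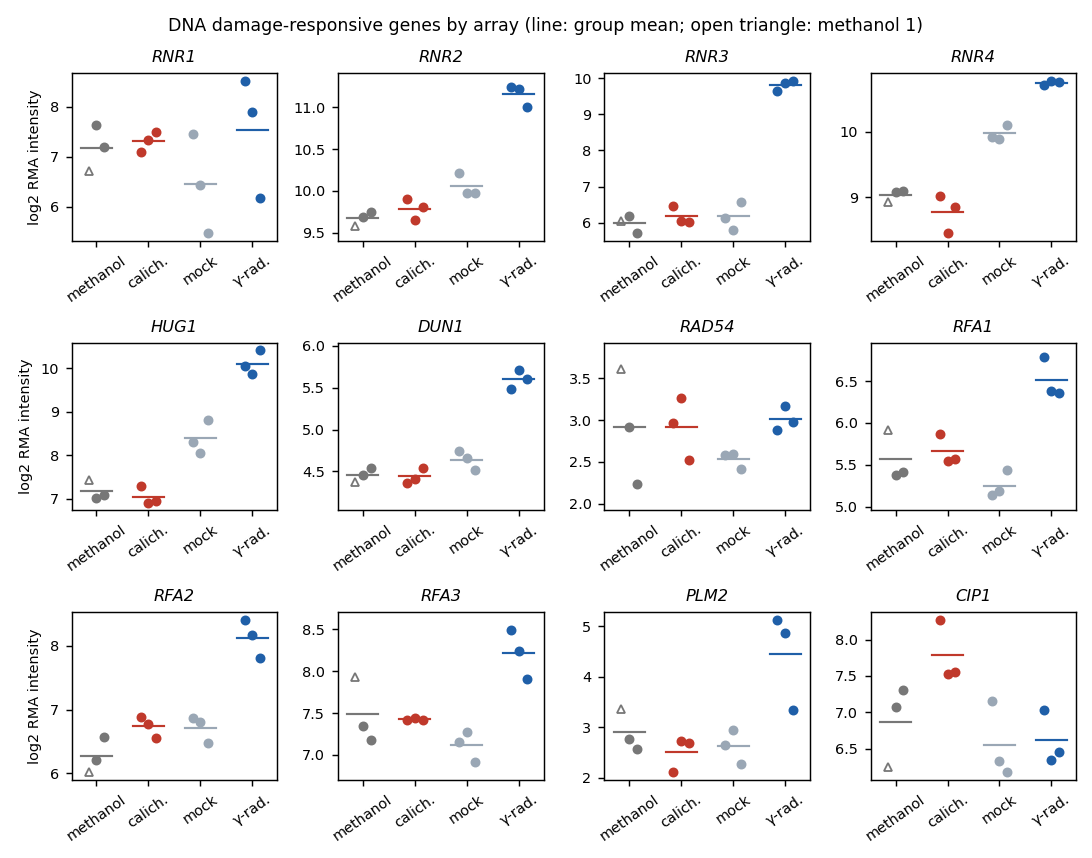
Intensities (log2 RMA scale, vertical axis) of 12 checkpoint, replication, repair and cell cycle genes on each array of methanol vehicle, calicheamicin, mock irradiation and γ-radiation, with lines at group means and methanol vehicle 1 as an open triangle. The calicheamicin points of *RNR2*, *RNR3*, *HUG1* and *DUN1* lie among the methanol points or within 0.3 of them, while the γ-radiation points of these genes lie above all their mock points.

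Genes of the yeast DNA damage signature were likewise near 0. The study took this set from earlier work, which defined it with an alkylating agent and ionizing radiation. The set has further members that are not analysed here. Of those covered, 0 of 6 were called and the median was -0.06. A log2 fold change above 0 was found for 1 of 6, beside 58.7% of all genes. Without methanol vehicle 1 the median was -0.01, with *RNR2*, *RAD54* and *ALG14* above 0 and *RNR4*, *DUN1* and *FMP52* below. *RAD54*, a translocase of homologous recombination, was dim, with 12.2, 7.57 and 4.71 on the methanol arrays and 7.82, 9.61 and 5.74 on the calicheamicin arrays. The log2 fold change was 0.00 (interval -0.54 to 0.53), and 0.34 without methanol vehicle 1. *FMP52*, a mitochondrial outer membrane protein gene, had 377, 528 and 487 against 444, 367 and 490 (-0.09, interval -0.54 to 0.35). *ALG14*, which acts in protein glycosylation, had 41.6, 23.2 and 24.4 against 27.0, 22.5 and 24.0 (-0.23, interval -0.70 to 0.24). Methanol vehicle 1 was the highest of the 6 values for *RAD54* and *ALG14*, and without it the *ALG14* value was 0.04. γ-radiation called 4 of the 6 genes, all higher, beside 0.902% of all genes called in either direction. Since radiation helped to define the set, that rise is not an independent result.

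Replication protein A, the complex that coats single-stranded DNA, was measured for all 3 subunits. *RFA2* had intensities of 65.0, 73.8 and 95.1 on the methanol arrays and 118, 110 and 94.5 on the calicheamicin arrays, a log2 fold change of 0.47 (interval 0.07 to 0.88) and of 0.35 without methanol vehicle 1. Calicheamicin 3 lay just below methanol vehicle 3, and *RFA2* was the member of the 3 with an unadjusted p under 0.05. *RFA1* had 60.2, 41.5 and 42.7 against 58.3, 46.6 and 47.6 (0.09, interval -0.29 to 0.48). *RFA3* had 243, 162 and 145 against 171, 174 and 170 (-0.06, interval -0.48 to 0.36). In both, methanol vehicle 1 was the highest control, and the values without it were 0.26 and 0.16. Without it, every calicheamicin array of *RFA1* and *RFA3* lay above both remaining methanol arrays, as for 11.4% of all genes. All 3 rose under γ-radiation, with log2 fold changes of 1.26, 1.41 and 1.10.

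Repair pathways for strand breaks held a few genes whose arrays did not overlap, none of them called. Over all genes, every calicheamicin array lay above every methanol array for 334 (5.91%) and below for 191 (3.38%). In homologous recombination, 16 genes were measured, 1 had all calicheamicin arrays higher and 4 had all lower, and the median log2 fold change was 0.04. *SGS1*, the RecQ helicase that acts with nucleases in end resection, had 4.90, 4.67 and 4.95 on the methanol arrays against 6.06, 7.60 and 5.60 (0.40, interval 0.02 to 0.78; 0.41 without methanol vehicle 1). *SAE2*, which starts resection with the Mre11 complex, had 6.36, 3.20 and 2.99 against 2.64, 2.92 and 2.65 (-0.52, interval -1.03 to -0.02; -0.18 without). *XRS2*, a subunit of the Mre11 complex, had 16.1, 11.9 and 11.3 against 10.4, 9.87 and 10.5 (-0.34, interval -0.69 to 0.01; -0.18 without). For *SAE2* and *XRS2* methanol vehicle 1 was the array farthest from the drug. All of these intensities lay below the array medians.

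Of 6 end-joining genes, 1 (16.7%) had groups that did not overlap, beside 9.28% of all genes. *YKU70*, a subunit of the Ku complex that holds broken ends, had 4.79, 6.91 and 7.38 on the methanol arrays and 9.61, 8.60 and 10.2 on the calicheamicin arrays, a log2 fold change of 0.59 (interval 0.19 to 0.99) and of 0.40 without methanol vehicle 1. The median of the 6 was -0.01, and 0.13 without methanol vehicle 1. The 15 checkpoint genes had a median of 0.00 with 0 non-overlapping members, and all 15 had an interval within a 2-fold change. Base excision and strand-break end repair (12 genes, median 0.02), nucleotide excision repair (14 genes, 0.02), post-replication repair (10 genes, 0.07) and DNA replication (35 genes, -0.01) also had 0 members called.

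Transcription regulators with forkhead-associated domains and regulators of the cell cycle included the gene with the largest positive difference among those whose arrays did not overlap. *CIP1*, an inhibitor of the G1 cyclin-dependent kinase, had intensities of 75.9, 134 and 158 on methanol vehicle 1 to 3 and of 309, 185 and 187 on calicheamicin 1 to 3, a log2 fold change of 0.91 (interval 0.29 to 1.53) and of 0.60 without methanol vehicle 1. Calicheamicin 1 was the highest array and methanol vehicle 1 the lowest. Under γ-radiation *CIP1* had a log2 fold change of 0.06 (interval -0.56 to 0.68). *SIC1*, an inhibitor of the S-phase kinase, had 17.4, 23.9 and 22.0 against 26.6, 32.5 and 26.4 (0.44, interval 0.03 to 0.85; 0.31 without), again with no overlap. *TOS4*, one of the forkhead-associated regulators, had 4.37, 7.88 and 8.14 against 10.6, 8.93 and 9.05 (0.54, interval 0.09 to 0.98; 0.24 without). Its paralog *PLM2*, a known damage-induced gene, had 10.2, 6.84 and 5.94 against 4.32, 6.66 and 6.48 (-0.39, interval -1.13 to 0.36), and 1.82 under γ-radiation. The 16 cyclin and inhibitor genes had a median of 0.19, which was -0.03 without methanol vehicle 1, 0.37 without methanol vehicle 3, and 0.35 and 0.11 without calicheamicin 1 and 3.

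The difference between the calicheamicin effect and the γ-radiation effect was tested in the same model, each agent against its own control. This difference was called for 11 genes (0.194%): the calicheamicin effect was the lower for 6 (0.106%) and the higher for 5 (0.0884%), and 320 genes had an unadjusted p under 0.05. *RNR3* differed by -3.44 (interval -4.29 to -2.59, adjusted p = 7.05e-04), *HUG1* by -1.84 (adjusted p = 0.0523), and *RNR2* and *DUN1* by -0.98 each (adjusted p = 0.0890 each). The intensities of *RNR3* were 70.0, 56.2 and 95.8 after mock irradiation and 794, 939 and 970 after γ-radiation. Those of *HUG1* were 315, 265 and 451 after mock irradiation and 1058, 931 and 1360 after γ-radiation. In each of the 4 genes all γ-radiation arrays lay above all mock arrays, whereas the calicheamicin and methanol arrays overlapped.

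The other 2 genes with a lower calicheamicin effect were *GTT1* and *ERP3*. *GTT1*, a glutathione transferase gene, had 312, 188 and 292 on the methanol arrays and 222, 203 and 287 on the calicheamicin arrays (log2 fold change -0.14), but 81.7, 104 and 130 after mock irradiation and 267, 309 and 274 after γ-radiation (1.45), a difference of -1.59 (adjusted p = 0.0890). The methanol arrays of *GTT1* all lay above the mock arrays and overlapped the γ-radiation arrays in range. *ERP3*, of the family of cargo receptors between endoplasmic reticulum and Golgi, had 15.0, 10.6 and 12.5 against 9.80, 12.1 and 9.69 (-0.27). All of these intensities lay below the array medians of 16.0 to 16.8 over all probe sets. The *ERP3* effect differed from that of γ-radiation by -1.16 (adjusted p = 0.0591).

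The remaining 5 genes fell under γ-radiation and lay near the control level under calicheamicin. *YNL058C*, an open reading frame with no standard name in these annotations, had 71.7, 77.8 and 77.6 on the methanol arrays and 60.1, 82.3 and 67.8 on the calicheamicin arrays, and 116, 110 and 109 after mock irradiation against 21.5, 25.9 and 30.2 after γ-radiation, a difference of effects of 2.0 (adjusted p = 8.27e-04). *EGT2*, a cell wall gene expressed as daughter cells separate, had 131, 248 and 267 against 295, 194 and 253, while γ-radiation lowered it from 99.6, 48.9 and 180 to 19.2, 16.0 and 28.9 (difference 2.45, adjusted p = 0.0925). *SWI5*, the transcription factor that drives late mitotic and early G1 genes, was dim on all arrays, with 3.39, 4.14 and 4.69 against 3.72, 4.45 and 4.15 and a difference of 1.36 (adjusted p = 0.0307). *AIM20* (1.84, adjusted p = 0.0449) and *HOM3*, the aspartate kinase of threonine and methionine synthesis (0.92, adjusted p = 0.0935), completed the 5. The calicheamicin log2 fold changes of these 5 genes lay between -0.12 and 0.25.

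How many genes differed depended on single arrays. The count was 3, 8 and 10 without methanol vehicle 1, 2 and 3, 5, 3 and 2 without calicheamicin 1, 2 and 3, 7, 4 and 10 without γ-radiation 1, 2 and 3, and 2, 6 and 7 without mock irradiation 1, 2 and 3. Blocking on the replicate number gave a count of 33. *RNR3* and *YNL058C* were called in all 23 settings in which this difference was fitted by gene. The fit on all probe sets was not counted. Without methanol vehicle 1 the 3 genes were *RNR3*, *YNL058C* and *SWI5*. The γ-radiation and mock arrays had actin 5′ to 3′ differences of -0.80 to -0.69, a narrower range than the methanol arrays, and with the actin 5′ to 3′ difference of each array as a covariate the count was 8, of which *RNR4* was not among the original 11.

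**Figure D2:**
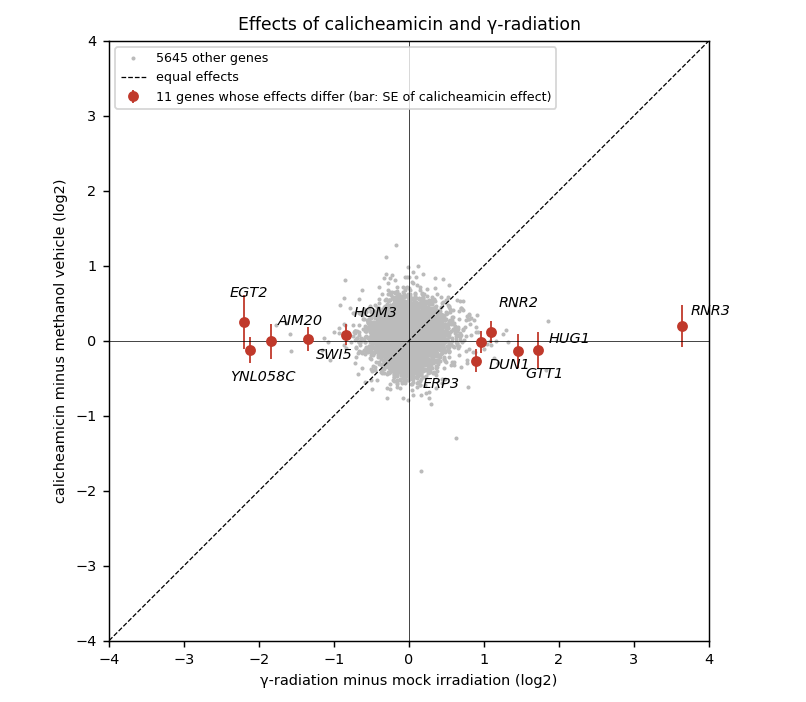
Log2 fold change of calicheamicin over methanol vehicle (vertical axis) against that of γ-radiation over mock irradiation (horizontal axis) for 5656 genes, with the 11 genes whose effects differed in red and bars of 1 standard error of the calicheamicin effect. The red genes lie along the horizontal line at 0, from *EGT2* at -2.21 to *RNR3* at 3.64 on the γ-radiation axis.

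Genes with every calicheamicin array above every methanol array, ranked by fold change, were led by *CIP1*, followed by *YMR181C*, *YPS1*, *MUB1*, *GSH1*, *SRP21*, *ROD1*, *TDA6*, *NUP133* and *PLB3*. Their log2 fold changes ran from 0.63 to 0.91. *YPS1*, a cell surface aspartic protease, had 109, 334 and 294 on the methanol arrays and 462, 373 and 349 on the calicheamicin arrays (0.83, interval 0.20 to 1.47; 0.32 without methanol vehicle 1). *GSH1*, which encodes the rate-limiting enzyme of glutathione synthesis, had 9.91, 20.3 and 25.3 against 30.3, 28.8 and 25.8 (0.71, interval 0.15 to 1.28; 0.31 without). *GSH2*, the next enzyme of that pathway, had 54.6, 62.5 and 70.2 against 79.9, 68.8 and 78.6 (0.28), with 1 calicheamicin array below methanol vehicle 3. The median of the 16 genes of glutathione metabolism was 0.01. *GSH1* was the 1 member of that list (6.25%) with no overlap, beside 9.28% of all genes.

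In the remaining genes of this group methanol vehicle 1 again set much of the size. *YMR181C* had 9.36, 36.8 and 38.8 against 43.0, 42.1 and 42.8, a log2 fold change of 0.84 that was 0.17 without methanol vehicle 1. *SRP21*, a subunit of the signal recognition particle, had 26.8, 67.8 and 83.6 against 92.2, 85.5 and 84.5 (0.71; 0.21 without). *MUB1*, a partner of the ubiquitin ligase Ubr2, had 6.86, 18.3 and 13.6 against 23.7, 21.1 and 19.1 (0.83; 0.43 without). Among the 10 genes, methanol vehicle 1 was the methanol array farthest from the drug in 9, beside 66.9% of all genes. *TDA6* was the exception, with 11.7, 6.49 and 7.95 against 15.1, 11.98 and 12.8, and a value of 0.64 that became 0.88. Over the 10 genes the median was 0.71 with all methanol arrays and 0.32 without methanol vehicle 1, and 2 of the 10 kept a 1.5-fold change.

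Genes with every calicheamicin array below every methanol array were led by *RPL9A*, *YEL067C*, *YIL171W*, *YHR033W*, *CDA2*, *DAK2*, *RPL28*, *YGL235W*, *PFU1* and *YIL001W*, with log2 fold changes from -0.79 to -0.55. *RPL9A*, which encodes a large-subunit ribosomal protein, had 347, 275 and 418 on the methanol arrays and 216, 213 and 168 on the calicheamicin arrays (-0.79, interval -1.56 to -0.02; -0.78 without methanol vehicle 1), and its probe set may share signal with the near-identical paralog *RPL9B*. *RPL28*, another large subunit protein, had 2335, 1753 and 1836 against 1007, 1382 and 1435 (-0.64, interval -0.99 to -0.28; -0.51 without). *CDA2*, a chitin deacetylase of the spore wall, had 28.9, 10.3 and 9.69 against 8.97, 9.10 and 8.28 (-0.69; -0.18 without), so that its size rested on methanol vehicle 1. *DAK2*, a dihydroxyacetone kinase, had 54.6, 26.2 and 30.0 against 16.8, 25.4 and 25.6 (-0.66; -0.34 without). Methanol vehicle 1 was the farthest methanol array in 9 of these 10, and the median was -0.68 with it and -0.49 without.

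**Figure D3:**
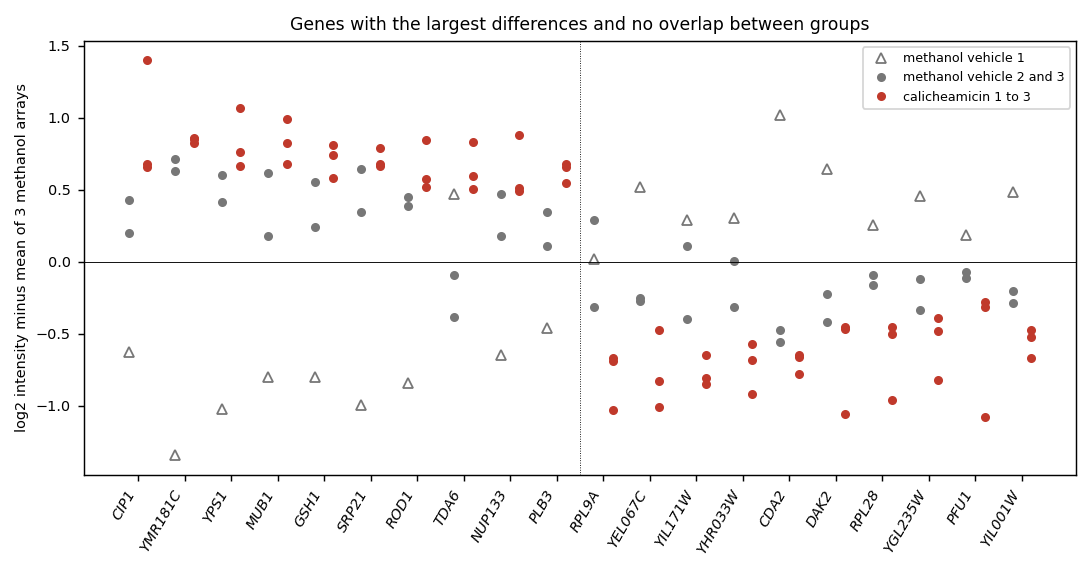
Log2 intensity on each array, relative to the mean of the 3 methanol arrays (vertical axis), for the 10 genes with the largest positive and the 10 with the largest negative differences among genes whose groups did not overlap. Methanol vehicle 1 (open triangle) is the methanol array farthest from the calicheamicin arrays (red) in 9 genes on each side of the dotted line.

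Cytosolic ribosomal protein genes, which encode the most abundant structural proteins of the cell and are lowered in many stresses, held a larger share of non-overlapping members than the array as a whole. Of 81 genes, 14 (17.3%) had all calicheamicin arrays lower, beside 3.38% of all genes, and 2 (2.47%) had all higher, beside 5.91%. None of the 81 was called, and 11 had an unadjusted p under 0.05, beside 3.89% of all genes. Without methanol vehicle 1, 19 of the 81 had all calicheamicin arrays lower, beside 7.78% of all genes. In that setting 7 had all higher, beside 11.4% of all genes. The median log2 intensity of the list was 10.85, 10.68 and 10.68 on methanol vehicle 1 to 3 and 10.61, 10.61 and 10.64 on calicheamicin 1 to 3, so that the array medians of this list did not overlap either. The median log2 fold change was -0.06, and -0.03 without methanol vehicle 1. Over all left-out arrays it lay between -0.11 and -0.02, with -0.11 without methanol vehicle 2. It was -0.04 without calicheamicin 1 and -0.02 without calicheamicin 2. Esperamicin A1, neocarzinostatin and γ-radiation, each against its own control, gave list medians of -0.05, -0.09 and -0.06.

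Single ribosomal protein genes differed in both directions. *RPS25A*, of the small subunit, had 3257, 2611 and 2622 on the methanol arrays and 1688, 2309 and 2161 on the calicheamicin arrays (-0.47, interval -0.78 to -0.16; -0.36 without methanol vehicle 1). *RPL24A* had 2487, 2001 and 2106 against 1610, 1791 and 1688 (-0.37, interval -0.68 to -0.06; -0.28 without). *RPL6B* went the other way, with 1088, 1835 and 1612 against 2126, 1787 and 2145 (0.45, interval 0.09 to 0.81; 0.23 without), and calicheamicin 2 lay below methanol vehicle 2. Many of these genes have a paralog of nearly the same sequence, and the probe sets could share its signal. The 115 ribosome assembly genes had a median of 0.05 that was -0.11 without methanol vehicle 1, where 17 of them had both remaining methanol arrays above all calicheamicin arrays, beside 7.78% of all genes. With all 3 methanol arrays 3 of the 115 (2.61%) lay wholly below, beside 3.38% of all genes.

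General stress genes, here *MSN2*, *MSN4* and genes that their products activate under many insults, had a median log2 fold change of 0.20 over 24 genes, and 0.27 without methanol vehicle 1. Their median log2 intensity was 6.49, 6.14 and 6.44 on methanol vehicle 1 to 3 and 6.94, 6.29 and 6.70 on calicheamicin 1 to 3. The groups overlapped, since calicheamicin 2 lay below methanol vehicle 1 and 3. The list median was 0.075 without calicheamicin 1, 0.084 without methanol vehicle 2, 0.32 without methanol vehicle 3 and 0.47 without calicheamicin 2. In this list 18 of 24 genes (75%) lay above 0, beside 58.7% of all genes. An unadjusted p under 0.05 was found for 1, beside 3.89% of all genes. An interval within a 2-fold change was found for 12 (50%), beside 91.9% of all genes. *MSN2*, the stress transcription factor gene, had 21.2, 56.2 and 40.7 against 59.5, 47.8 and 53.5 (0.55, interval 0.01 to 1.09; 0.16 without), its partner *MSN4* had 16.4, 38.0 and 29.8 against 37.6, 37.1 and 43.4 (0.57; 0.22 without), and *DDR2*, a multistress response gene, had 242, 407 and 636 against 610, 467 and 720 (0.57; 0.21 without). In all 3 the lowest value of the 6 was methanol vehicle 1.

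Heat shock chaperone genes had a median of 0.13 over 22 genes and of 0.28 without methanol vehicle 1, the array on which their median log2 intensity was highest (7.84, against 6.99 and 7.14 on the other methanol arrays and 7.67, 7.25 and 7.20 on the calicheamicin arrays). It was -0.020 without calicheamicin 1, 0.030 without methanol vehicle 2 and 0.040 without methanol vehicle 3. *KAR2*, the chaperone of the endoplasmic reticulum, had 522, 566 and 631 against 848, 646 and 700 (0.35, interval 0.00 to 0.69, and 0.28 without). It was the 1 of these 22 genes (4.55%) with no overlap, beside 9.28% of all genes. Oxidative stress genes had a median of 0.00 over 26 genes, with 0 non-overlapping, beside 9.28% of all genes. Proteasome genes had a median of 0.01 over 33 genes. *PRE8*, a subunit of the core particle, had 138, 198 and 210 against 262, 211 and 234 (0.39, interval 0.05 to 0.73), and *RPT1*, an ATPase of the cap, had 174, 182 and 161 against 240, 195 and 199 (0.29, interval 0.00 to 0.58). Both had no overlap, and over all left-out arrays their values ran from 0.20 to 0.50 and from 0.19 to 0.35. All calicheamicin arrays were higher for 2 of the 33 genes (6.06%), beside 5.91% of all genes, and lower for 0. All 33 proteasome genes had intervals within a 2-fold change.

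The medians of many lists moved with methanol vehicle 1, and 19 of the 45 changed sign when it was left out. Translation factor genes went from 0.10 to -0.10 and drug efflux genes from 0.17 to -0.04. Genes of the tricarboxylic acid cycle and respiration had a median of 0.15 over 43 genes, 37 of them (86.0%) above 0 beside 58.7% of all genes, and of -0.01 without that array. Without methanol vehicle 3 it was 0.38, and without calicheamicin 3 and 2 it was 0.069 and 0.23. Their median log2 intensity was 6.81, 7.30 and 7.59 on the methanol arrays and 7.51, 7.25 and 7.61 on the calicheamicin arrays. *NDI1*, the internal NADH dehydrogenase, had 8.11, 22.0 and 28.7 against 31.3, 28.4 and 28.7 (0.77; 0.23 without), and *SDH2*, a succinate dehydrogenase subunit, had 39.4, 113 and 141 against 155, 118 and 145 (0.69; 0.13 without). The 4 histone genes with probe sets of their own had a median of 0.28, and of -0.14 without methanol vehicle 1, 0.51 without methanol vehicle 3 and 0.16 without calicheamicin 3. *HTB1*, a gene for histone H2B, had 398, 781 and 945 against 647, 665 and 815 (0.09; -0.28 without), and *HTB2*, the other H2B gene, had 269, 596 and 697 against 541, 489 and 659 (0.21; -0.21 without). Under γ-radiation the same pair fell by 1.59 and 1.78 on the log2 scale.

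The study divided genes by their association with single-strand or double-strand damage over these same arrays, so that neither list is independent of the comparison. Of the genes listed for double-strand damage, 28 were measured, 23 (82.1%) had a log2 fold change above 0 beside 58.7% of all genes, the median was 0.12 and 0 were called. Without methanol vehicle 1, 2 and 3 in turn the median was -0.05, 0.19 and 0.27. *MRH1*, a membrane protein gene, had 266, 1486 and 1780 on the methanol arrays against 1475, 1527 and 1685 (0.81; -0.06 without), and *DHH1*, a helicase of mRNA decapping, had 17.8, 55.8 and 60.5 against 76.2, 61.8 and 52.4 (0.68; 0.11 without). *LAG2*, a regulator of the SCF ubiquitin ligase, had 5.55, 10.2 and 4.83 against 12.6, 9.34 and 10.2 (0.71; 0.60 without), with methanol vehicle 2 inside the range of the drug arrays. The list for single-strand damage had 24 measured genes, a median of -0.04 and 0 called, and its median was 0.06 without methanol vehicle 1.

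**Figure D4:**
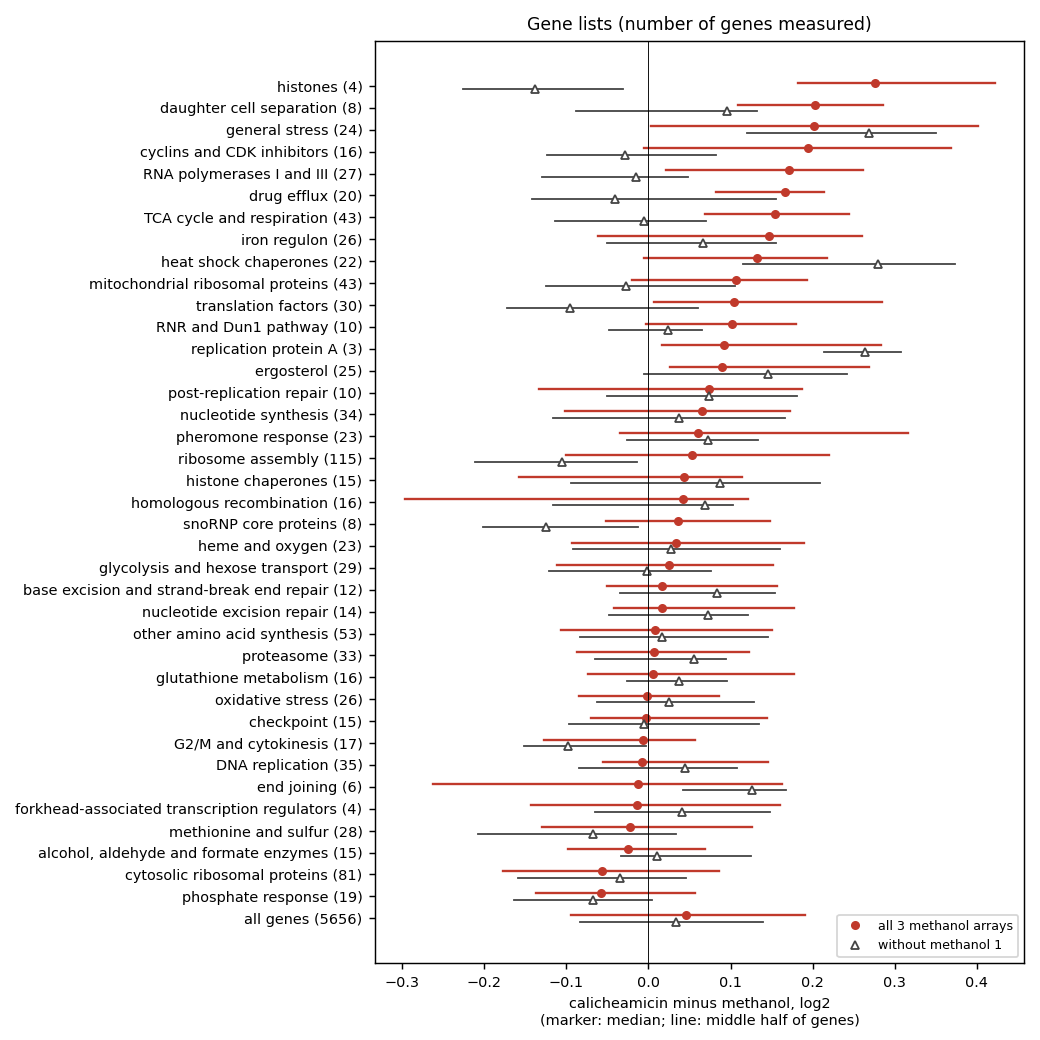
Median log2 fold change of calicheamicin over methanol vehicle (markers, horizontal axis) and the range from the lower to the upper quartile of its genes (lines) for the functional gene lists and for all genes, with all 3 methanol arrays (red) and without methanol vehicle 1 (open triangles). The medians lie between -0.06 and 0.28 with all arrays. Those of many lists, among them histones, cyclins and respiration, move to 0 or below without methanol vehicle 1.

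The genes called in alternative settings had uneven arrays. The 4 LPE calls were *NOP56*, *MRP7*, *RDN5-1* and *FRT2*. *NOP56*, a core protein of box C/D small nucleolar particles, had 24.4, 97.9 and 21.4 on the methanol arrays and 87.1, 78.2 and 105 on the calicheamicin arrays (1.27, interval 0.34 to 2.20; 0.97 without methanol vehicle 1), and limma called it without methanol vehicle 2, with a log2 fold change of 1.97 and an adjusted p of 0.0974. *FRT2*, an endoplasmic reticulum protein of the stress response, had 62.5, 243 and 24.1 against 26.5, 22.5 and 16.7 (-1.73, interval -2.81 to -0.65; -1.83 without), and limma called it without methanol vehicle 3, with -2.52 and an adjusted p of 0.0524. Without methanol vehicle 2, its highest array, the *FRT2* value was -0.85, and over all left-out arrays that of *NOP56* ran from 0.87 to 1.97. Each of these limma calls arose when the methanol array nearest to the drug arrays was left out. *MRP7*, a mitochondrial ribosomal protein gene, had 10.7, 12.4 and 34.7 against 25.3, 30.7 and 32.3 (0.81), and *RDN5-1*, a 5S ribosomal RNA gene, had 98.9, 58.0 and 10.7 against 13.0, 8.64 and 36.6 (-1.30). The groups of *MRP7* and *RDN5-1* overlapped as well.

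Without methanol vehicle 1 the LPE test called 9 genes, of which *FRT2* and *RDN5-1* were also called with it. The 6 with a positive value were *HSP30* (1.42), *USO1* (1.04), *ECM22* (0.93), *TMH11* (0.82), *COQ11* (0.80) and *PUS5* (0.80), and the third negative one was *BSC1* (-1.31). *HSP30*, a plasma membrane heat shock protein, had 158, 8.49 and 15.4 on the methanol arrays and 100, 11.8 and 24.0 on the calicheamicin arrays, with replicate 1 the highest in both groups. With all arrays its log2 fold change was 0.15 (interval -1.84 to 2.15, and -0.64 to 0.95 with a block on the replicate number). *BSC1* had 7.78, 42.9 and 32.2 against 13.9, 14.5 and 16.8, where methanol vehicle 1 was the lowest of the 6 arrays and methanol vehicle 2 the highest. *FLO10*, a flocculation gene, had 9.31, 58.0 and 64.7 against 28.0, 35.7 and 39.0, and its log2 fold change was 0.05 with all arrays and -0.85 without methanol vehicle 1. A log2 fold change past 1.5-fold in size was found for 96 genes with all methanol arrays (73 higher, 23 lower) and for 39 without methanol vehicle 1, and 13 genes were in both sets.

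**Figure D5:**
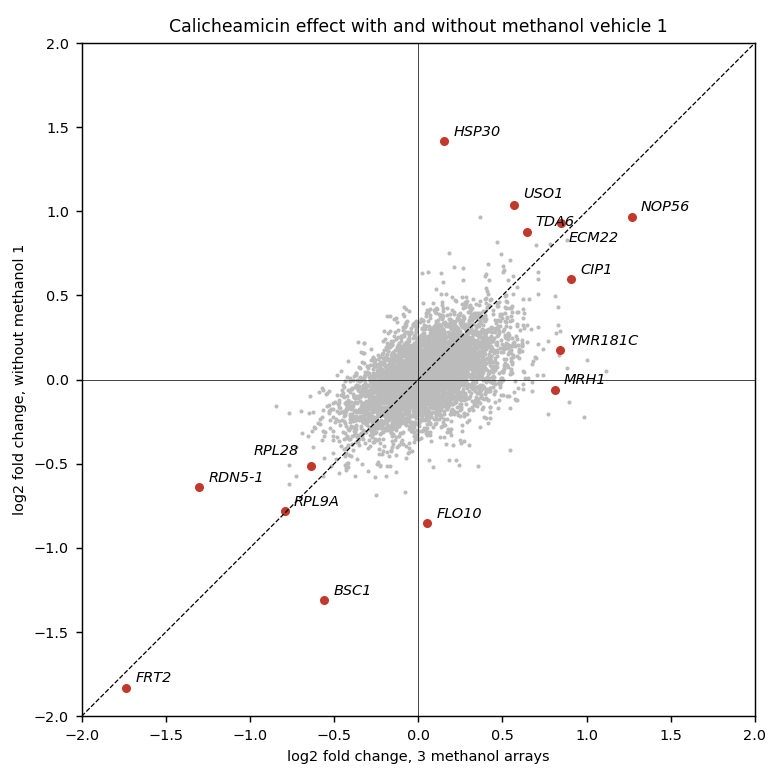
Log2 fold change of calicheamicin over methanol vehicle for 5656 genes with all 3 methanol arrays (horizontal axis) and without methanol vehicle 1 (vertical axis), with named genes in red and the line of equal values dashed. *FRT2* (-1.73 and -1.83) and *RPL9A* (-0.79 and -0.78) lie near the line, while *YMR181C* (0.84 and 0.17), *HSP30* (0.15 and 1.42) and *FLO10* (0.05 and -0.85) lie far from it.

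The related enediynes share the methanol controls with calicheamicin and were used at other doses, so that their values stand side by side without a comparison. *CIP1* had a log2 fold change of 0.91 under calicheamicin at 1 nM, 0.58 under esperamicin A1 at 3 nM and 1.49 under neocarzinostatin at 4 nM. *RNR3* had 0.20, 0.67 and 1.02 in the same order, and *HUG1* had -0.13, -0.19 and 0.19. *RFA2* had 0.47, 0.74 and 0.62. *RPL9A* had -0.79, -0.99 and -0.88, and *RPL28* had -0.64, -0.39 and -0.58. Any peculiarity of the shared methanol arrays enters all 3 values of a gene.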

How the data were processed

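RNA of 18 cultures was hybridised to Affymetrix YG-S98 arrays, 3 biological replicates for each of 6 groups. The authors made the deposited intensity values with the RMA algorithm (background correction, quantile normalization and summary per probe set). What was deposited is linear, so each intensity was log2-transformed here and not scaled further. Groups and replicate numbers follow the labels. Of 9335 probe sets, 60 are controls, 6504 match 1 gene symbol, 328 several and 2443 none. Each gene is represented by its probe set with the highest mean, which gives 5656 genes, 315 of them with more than 1 probe set. The Absent/Present calls that the study filtered on are not used here, and 1 of the signature genes that the study names is not reported. The number of arrays limits the precision.

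All 18 arrays were fitted in 1 model of 6 groups using limma 3.58.1 (R 4.3.3; lmFit, then eBayes) with 12 residual degrees of freedom, and adjusted p-values are Benjamini-Hochberg values over all 5656 genes. Intervals are limma's 95% intervals. Calls need a fold change of 1.5 and an adjusted p of 0.10. The study's LPE test was rewritten after its description, and the fit was tested on simulated data. Replicates with the same number deviated together in calicheamicin and methanol vehicle (residual correlations 0.17, 0.13 and 0.40 for numbers 1 to 3), a pairing that comes from the values and not from the labels. Alternatives were cyclic loess, median centring, a filter on dim genes, an intensity trend, robust eBayes, array weights, the replicate block, the compared groups alone, an actin covariate, all probe sets, other thresholds and leaving out each array. LPE and array weights, each without methanol vehicle 1, were added after seeing the data.

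The arrays compared, the 45 gene lists and the tests were chosen with earlier results of these data known. Genes were eligible to be named if they were among the 10 largest differences in each direction with no overlap between groups, the checkpoint and signature genes, the genes called in any alternative, up to 4 genes per list by smallest unadjusted p, those whose effect differed from γ-radiation, or the 4 largest differences in each direction without methanol vehicle 1. The rule gave 208 genes, and those described were picked from them after their values were seen.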

Additional observations from a re-analysis of the deposited data

Results flagged for a closer look

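The difference between the calicheamicin effect (against methanol vehicle) and the γ-radiation effect (against mock irradiation) was past the threshold by limma's test of the difference itself for 11 genes. The difference was -3.44 on the log2 scale for *RNR3*, -1.84 for *HUG1*, -1.59 for *GTT1*, -1.16 for *ERP3*, -0.98 for *RNR2* and -0.98 for *DUN1*. It was 0.92 for *HOM3*, 1.36 for *SWI5*, 1.84 for *AIM20*, 2.0 for *YNL058C* and 2.45 for *EGT2*. In these 11 genes the calicheamicin effect ranged from -0.27 for *ERP3* to 0.25 for *EGT2*. Without methanol vehicle 1 the test called 3 of them, *RNR3*, *SWI5* and *YNL058C*.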

How the results depend on the processing

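For calicheamicin against methanol vehicle limma called 0 genes in every alternative but the fits without methanol vehicle 2 or 3 (1 gene each, range over left-out arrays 0 to 1); the LPE test called 4, and 9 without methanol vehicle 1. With the replicate block it called 0 genes, 405 had an unadjusted p under 0.05 and the smallest adjusted p was 0.667, so the block changed no call of this comparison. For the difference from γ-radiation, 11 genes became 33 with the replicate block, 44 with array weights, 30 with array weights and without methanol vehicle 1, 19 after cyclic loess, 18 after median centring, 4 at an adjusted p of 0.05, 3 in a fit of the 4 compared groups alone and 2 to 10 over left-out arrays; the cause was not tested. The median of all genes, 0.05, was 0.0084 after cyclic loess and 0.013 after centring, that of other amino acid synthesis genes, 0.01, was -0.068 after cyclic loess, that of DNA replication genes, -0.01, ran from -0.0055 to 0.059 over left-out arrays, and that of daughter cell separation genes, 0.20, from 0.10 to 0.29.

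Among genes whose calicheamicin value changed sign under a setting, limma called none in any setting, and the LPE test without methanol vehicle 1 called *HSP30*, *TMH11* and *USO1*. With array weights the values were -0.089 for *RNR1*, 0.00086 for *DUN1*, 0.0089 for *RAD54*, 0.0080 for *ALG14*, 0.10 for *RFA3*, 0.22 for *GTT1*, -0.016 for *HOM3*, -0.049 for *SWI5*, -0.10 for *HTB1*, -0.014 for *HTB2* and -0.62 for *FLO10*. With the actin covariate they were -0.066 for *RNR1*, 0.30 for *RAD54*, 0.10 for *RFA3*, -0.0018 for *HOM3*, -0.079 for *SWI5*, -0.022 for *EGT2*, -0.22 for *HTB1*, -0.14 for *HTB2* and -0.67 for *FLO10*, and after centring *SWI5* had -0.013. Over left-out arrays the values ran from -0.10 to 0.36 for *RNR1*, -0.25 to 0.0035 for *HUG1*, -0.071 to 0.024 for *DUN1*, -0.35 to 0.34 for *RAD54*, -0.24 to 0.022 for *FMP52*, -0.38 to 0.039 for *ALG14*, -0.010 to 0.26 for *RFA1*, -0.21 to 0.16 for *RFA3*, -0.36 to 0.0018 for *GTT1*, -0.026 to 0.17 for *HOM3*, -0.11 to 0.13 for *SWI5*, -0.16 to 0.14 for *AIM20*, -0.078 to 0.44 for *EGT2*, -0.70 to 1.42 for *HSP30*, -0.15 to 0.82 for *TMH11*, -0.27 to 1.04 for *USO1*, -0.28 to 0.34 for *HTB1*, -0.21 to 0.48 for *HTB2*, -0.060 to 1.31 for *MRH1* and -0.85 to 0.55 for *FLO10*. Probe sets near or below the array medians carry little signal over background. Besides *SWI5*, *SAE2*, *USO1* and *PUS5*, they include *ERP3*, *RAD54*, *PLM2*, *SGS1*, *XRS2*, *YKU70*, *TOS4*, *LAG2* and *TDA6*. Of the largest falls, *YEL067C*, *YHR033W*, *CDA2*, *YGL235W* and *YIL001W* were as low on the calicheamicin arrays.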
